A study of Rattus norvegicus with 6 samples.

Results

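The genes described here are the G-type cyclins and a set of inhibitors of the cell cycle: Ccng1 and Ccng2, the cyclin-dependent kinase inhibitor genes Cdkn1a, Cdkn1b, Cdkn1c, Cdkn2c and Cdkn2d, the pocket protein genes Rbl1 and Rbl2, and the repressor gene Hbp1. They were chosen by name, with earlier results of these data known. Counts and medians set beside those of all probe sets therefore describe these genes and do not test them as a set. Each gene was read from the probe set annotated to that symbol alone. Of the 10 genes, 8 were measured in this way, each by 1 probe set, among 14506 named genes and 29214 probe sets in all. Rbl1 and Cdkn2d had no probe set with their symbol in the annotation and are not analysed here.

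RNA on the 6 arrays came from RBL-2H3, a line derived from a rat basophilic leukaemia that serves as a model of mast cells. Every group, the control included, was described as carrying a stable overexpression of wild-type Dectin-1, a receptor for fungal beta-glucans. By that description, no array came from cells without the added receptor. The control group (2 arrays) received no stimulus, the curdlan group (2 arrays) received curdlan, a beta-glucan that engages Dectin-1, and the R406 plus curdlan group (2 arrays) was pretreated with R406, an inhibitor of the tyrosine kinase Syk, before curdlan. The labels name no dose, no time, no number of clones and no separate cultures behind the arrays of a group. The spread on which the p-values rest may therefore be technical. No group received R406 without curdlan, so a block of the curdlan response and an effect of R406 on resting cells cannot be told apart.

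Progression from G1 into S phase is driven by cyclins D and E with their kinases, which phosphorylate the retinoblastoma family and release E2F factors. Inhibitors of the CIP/KIP class (Cdkn1a, Cdkn1b and Cdkn1c, encoding p21, p27 and p57) bind cyclin and kinase together, and those of the INK4 class (Cdkn2c, encoding p18) bind the D-type kinases Cdk4 and Cdk6. Rbl2 encodes the pocket protein p130, which with E2F factors and the MuvB proteins represses cell-cycle genes in resting cells. The cyclins G differ from the others in that they are linked to growth arrest: Ccng1 is a p53 target, and Ccng2 is known to be high in arrested cells. Hbp1 encodes an HMG-box repressor that binds the retinoblastoma family. Ccng2, Cdkn1b, Rbl2 and Hbp1 are among the known targets of FOXO factors, which growth factor signalling through Akt keeps out of the nucleus. That list of targets is not complete and may leave out members that moved differently. The members it names were those lowest with curdlan and highest under R406. It leaves out Cdkn1a, which moved the other way, by 0.43 with curdlan and -0.74 under R406 against curdlan. No common pattern of FOXO targets can be read from it. Control of the members by FOXO factors was not tested.

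Values are log2 signals, in which a difference of 1 is a doubling. The array medians lay between 7.204 and 7.241. Of the 19 mast cell markers measured, those of the IgE receptor were among the brightest signals. Fcer1a was at 12.75, Ms4a2 at 13.52 and Fcer1g at 13.38 (means of 6 arrays). Kit, at 12.72, and Cpa3, at 13.48, were bright as well. Below the array medians lay the tryptase genes Tpsb2 and Tpsab1 at 6.27 and 6.14, Tph1 at 6.66, Mcpt1l1 at 5.445 and Mcpt9 at 5.22. The mean of the 13 macrophage and neutrophil markers was 6.69 to 6.73 in control, 6.67 to 6.69 in curdlan and 6.63 to 6.64 in R406 plus curdlan arrays, and that of the 8 lymphocyte markers was 5.86 to 6.004 over all 6 arrays. One macrophage and neutrophil marker, Itgam, passed a test: it was lower under R406 than with curdlan, at -0.36 ± 0.0661 (adjusted p = 0.0408). Itgam, at a mean of 10.54 over the 6 arrays, and Cd68, at 8.13, were the 2 of these 13 markers above the median signal. Among the mast cell markers Tph1 passed, at 0.72 ± 0.0792 with curdlan and -0.69 ± 0.0792 under R406 (adjusted p = 0.0295 and 0.0123). The part of these markers in the changes of the members was not tested. Syk itself had changes of -0.12 ± 0.0452 with curdlan (limma, Benjamini-Hochberg adjusted p = 0.31) and 0.07 ± 0.0452 with R406 (adjusted p = 0.446). In bulk RNA, fewer cells making a transcript and less of it per cell cannot be told apart.

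Ccng2 and Hbp1 had the widest range over the groups, so the 250 bases before their annotated starts are shown (RefSeq, GRCr8, both genes on the minus strand, 5′ to 3′ in the direction of the gene). The Ccng2 stretch is chr14:15097191-15097440 and that of Hbp1 is chr6:54283260-54283509. Capitals mark a match to a FOXO core, GTAAACA.

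Ccng2: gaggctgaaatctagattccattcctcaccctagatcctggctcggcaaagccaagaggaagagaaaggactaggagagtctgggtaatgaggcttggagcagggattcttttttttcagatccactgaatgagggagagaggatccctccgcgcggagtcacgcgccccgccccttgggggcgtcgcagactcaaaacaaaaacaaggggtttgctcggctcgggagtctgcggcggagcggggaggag

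Hbp1: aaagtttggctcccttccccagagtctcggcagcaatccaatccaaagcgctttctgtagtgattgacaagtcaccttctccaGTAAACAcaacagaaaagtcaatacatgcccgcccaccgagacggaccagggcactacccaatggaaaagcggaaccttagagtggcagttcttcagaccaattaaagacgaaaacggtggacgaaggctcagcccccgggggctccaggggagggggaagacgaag

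The match before Hbp1 begins 167 bases before the start. In the full windows of 300 bases (250 before and 50 after the start), searched on both strands, the FOXO core was in 1 of the 9 member promoters in the table, that of Hbp1, and in 3.78% of 33469 promoters. The E2F core TTCCCGC was in the window of Cdkn2c (4.21% of all promoters), its form TTCGCGC in that of Rbl1 (1.51%), and the CHR element TTTGAA in that of Rbl2 (18.3%). The E-box CACGTG, the AP-1 motif TGANTCA and the CRE motif TGACGTC were in 0 of the 9 and in 6.42%, 7.33% and 3.22% of all promoters. No motif string contains another. These matches describe letters in a window and not bound sites.

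**Figure D1:**
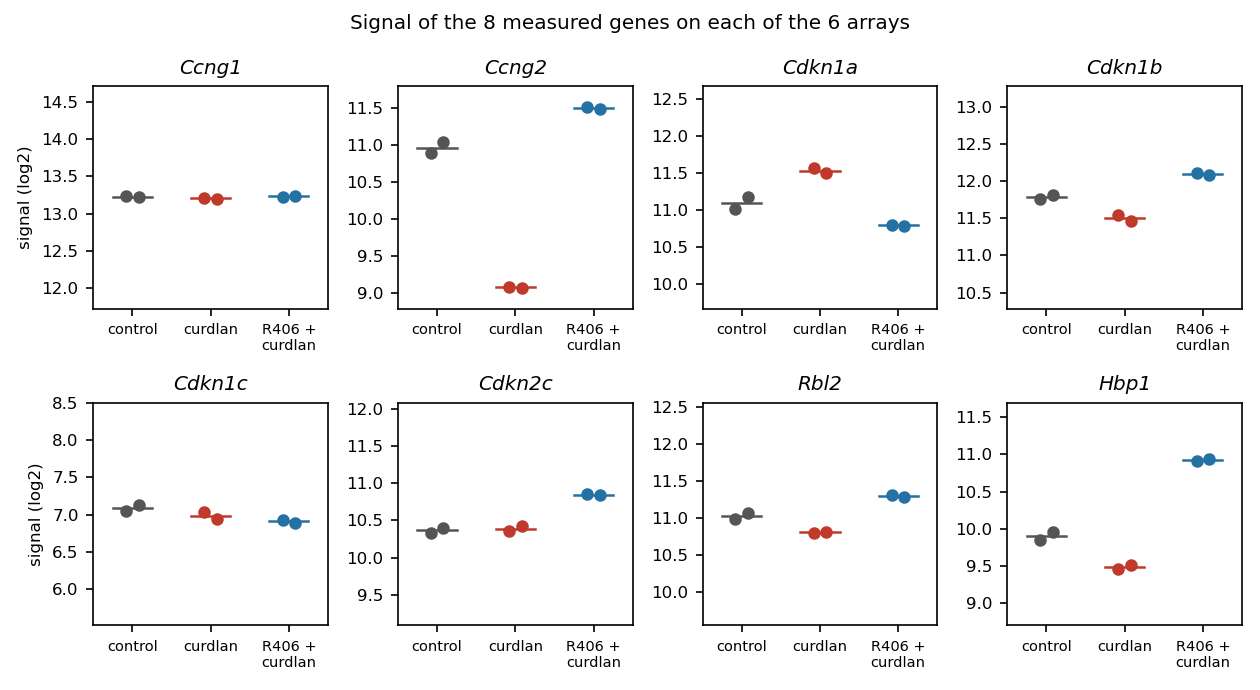
Log2 signal (y axis, 3 units high in every panel) of the 8 measured genes on each array (points) with the group mean (line), for control, curdlan and R406 plus curdlan arrays. Ccng2 is lowest in the curdlan arrays at 9.07 and 9.08, Hbp1 is highest under R406 at 10.91 and 10.94, and Ccng1 lies between 13.20 and 13.24 on all 6 arrays.

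The first comparison set curdlan against the unstimulated control. No array came from cells without the added receptor, so the part of Dectin-1 in these changes was not tested. With curdlan, Ccng2 fell, and it was the 1 of 8 measured genes that passed the test, where 1.59% of all probe sets passed, 1.04% higher and 0.551% lower. The other 7 did not pass: 5 of them had a negative and 2 a positive change, all smaller than 0.5. The median change of the 8 was -0.16, against -0.01 over all probe sets. Groups did not overlap for 7 of the 8 genes, and for 43.1% of all probe sets.

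The signal of Ccng2 (probe set 10775761) was 10.88 and 11.04 in control arrays, 9.08 and 9.07 in curdlan arrays, and 11.51 and 11.48 in R406 plus curdlan arrays. Both curdlan arrays were below both control arrays, and both R406 arrays were above them. The change with curdlan was -1.89 ± 0.0675 (SE, 2 arrays per group; limma, adjusted p = 0.00165), a level 3.70-fold lower, and was the third most negative among the 14506 genes. The other G-type cyclin, Ccng1 (probe set 10742145), was one of the brightest signals, above 98.2% of probe sets or equal to them. It read 13.24 and 13.22 in control, 13.21 and 13.20 in curdlan, and 13.23 and 13.24 in R406 plus curdlan arrays, and its change with curdlan was -0.02 ± 0.0427 (adjusted p = 0.858), with a 95% interval of -0.13 to 0.08. That interval and the interval of Ccng2, -2.06 to -1.72, do not meet. No saturation flag was used here.

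Among the CIP/KIP genes, Cdkn1a had arrays at 11.01 and 11.18 in control and 11.56 and 11.50 with curdlan. Both curdlan arrays were above both control arrays, at a change of 0.43 ± 0.0697 (adjusted p = 0.0641). Cdkn1b had 11.76 and 11.81 in control and 11.54 and 11.46 with curdlan, the opposite order, at -0.28 ± 0.0508 (adjusted p = 0.0821). Cdkn1c, at 7.05 and 7.13 in control and 7.03 and 6.94 with curdlan, had a change of -0.11 ± 0.0582 (adjusted p = 0.498). Its mean over all arrays, 6.99, lay below the array medians, and no detection call was used here.

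Hbp1 had 9.84 and 9.96 in control and 9.46 and 9.51 with curdlan, a change of -0.42 ± 0.0609 (adjusted p = 0.0536), just short of the threshold. Rbl2 had 10.98 and 11.06 in control and 10.80 and 10.81 with curdlan, at -0.21 ± 0.0497 (adjusted p = 0.143). Both genes were lower on each curdlan array than on either control array. The INK4 gene Cdkn2c had 10.33 and 10.40 in control and 10.36 and 10.42 with curdlan, so that the groups overlapped, with a change of 0.02 ± 0.0521 (adjusted p = 0.889) and a 95% interval of -0.11 to 0.16. The calls in this comparison depended on how the variance was estimated. With a limma variance prior that follows the signal level, 5 of the 8 passed. Cdkn1a rose (adjusted p = 0.00424) and Cdkn1b, Rbl2 and Hbp1 fell with Ccng2 (adjusted p = 0.00399, 0.0185 and 0.00433). Those 5 genes passed as well when only the 14607 probe sets above the median signal were tested. Calls over all 29214 probe sets rose with that prior too, from 465 to 1557, and the filter gave 1572 of 14607.

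The second comparison set R406 plus curdlan against curdlan alone. Transcript arrays do not measure Syk activity, so the part of Syk in these changes was not tested. Under R406, 5 of the 8 rose against curdlan alone (Ccng2, Hbp1, Cdkn1b, Rbl2 and Cdkn2c), 1 fell (Cdkn1a), and Ccng1 and Cdkn1c did not pass. Of all probe sets 7.25% passed in this comparison, 4.02% higher and 3.23% lower. The median change of the 8 was 0.47, against -0.002 over all probe sets. Groups did not overlap for 8 of the 8 genes and for 53.3% of all probe sets. Both comparisons use the same curdlan arrays, so a low or high reading there enters each with opposite sign.

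**Figure D2:**
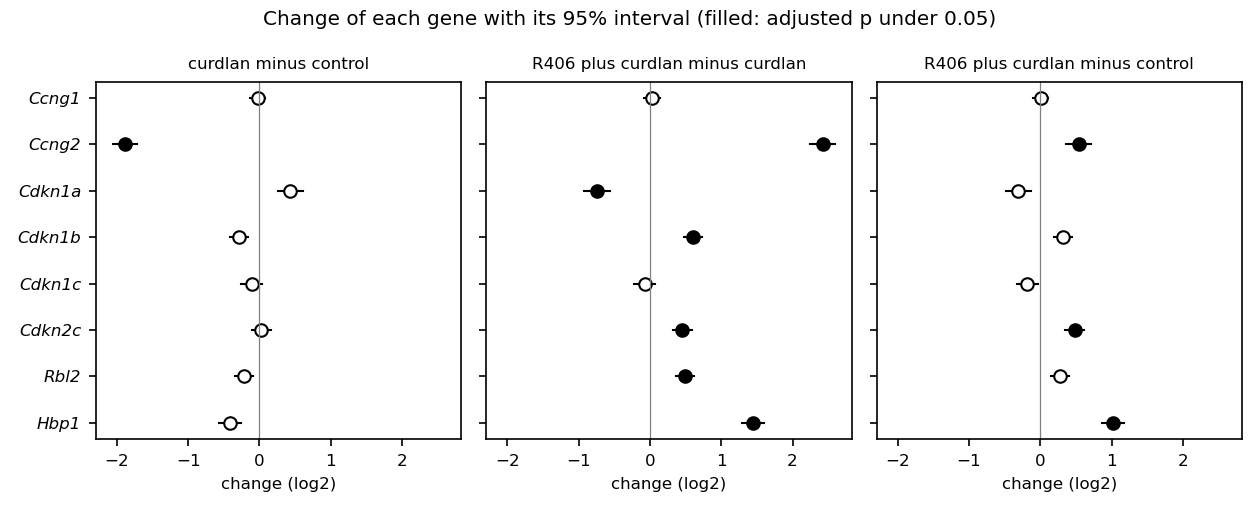
Change in log2 signal (x axis) of each measured gene in the 3 comparisons, with 95% intervals from the fit; filled points passed at an adjusted p under 0.05. Ccng2 passed in all 3 comparisons, at -1.89, 2.42 and 0.54, and Cdkn1a is the 1 filled point left of 0 in the comparison of R406 plus curdlan with curdlan.

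Ccng2 rose by 2.42 ± 0.0675 under R406 (adjusted p = 0.000346), a 5.36-fold difference from curdlan alone and the third most positive change among 14506 genes. Hbp1 rose from 9.46 and 9.51 with curdlan to 10.91 and 10.94 under R406, by 1.44 ± 0.0609 (adjusted p = 0.00111), which is 2.71-fold and ranked 10 of 14506. For Ccng2 and Hbp1 each R406 array was above each array of the other groups.

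Cdkn1b, at 12.11 and 12.09 under R406, rose by 0.60 ± 0.0508 against curdlan alone (adjusted p = 0.00596), or 1.52-fold. Cdkn1a moved the other way within the same CIP/KIP class: it was at 10.80 and 10.78 under R406, and fell by 0.74 ± 0.0697 (adjusted p = 0.00754), a 1.67-fold difference. Cdkn1c was at 6.93 and 6.89, with a change of -0.07 ± 0.0582 (adjusted p = 0.533). Of the CIP/KIP genes 1 rose, 1 fell and 1 did not pass.

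Cdkn2c was at 10.85 and 10.84 under R406, above all 4 other arrays, and rose by 0.46 ± 0.0521 (adjusted p = 0.0122). Rbl2 was at 11.31 and 11.28, and rose by 0.49 ± 0.0497 (adjusted p = 0.00931). These are differences of 1.372-fold and 1.401-fold. Ccng1 had a change of 0.03 ± 0.0427 (adjusted p = 0.758), with a 95% interval of -0.08 to 0.14, so a change of the size seen for Cdkn2c lies outside its interval.

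Ccng2 and Hbp1 passed also when any 1 of the 6 arrays was left out, with adjusted p up to 0.00903 and 0.0228. Cdkn1b was lost without R406 plus curdlan replicate 1 or 2 (adjusted p = 0.0662 and 0.0638). Cdkn1a was lost without those arrays (0.0712 and 0.0744) and without curdlan replicate 1 (0.0548). Rbl2 and Cdkn2c were lost without any 1 of the 4 curdlan or R406 plus curdlan arrays, at adjusted p up to 0.0855 and 0.102. The number passing was 3 and 4 when curdlan replicates 1 and 2 were left out in turn, and 2 without either R406 plus curdlan array. Calls over all probe sets dropped in these fits as well, from 2118 to 532 and 599, and to 231 and 210. The changes themselves moved little, for example from 0.47 to 0.50 for Rbl2 without 1 curdlan or R406 plus curdlan array. Leaving out a control array could not move them.

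The third comparison set R406 plus curdlan against the unstimulated control, where 2.23% of all probe sets passed, 1.44% higher and 0.791% lower. Groups did not overlap for 7 of the 8 genes and for 53.5% of all probe sets. Of the 8 genes 3 passed, all higher: Hbp1 by 1.02 ± 0.0609 (adjusted p = 0.0069), Ccng2 by 0.54 ± 0.0675 (adjusted p = 0.0323) and Cdkn2c by 0.48 ± 0.0521 (adjusted p = 0.0236). The levels of these genes under R406 were 2.03-fold, 1.45-fold and 1.396-fold those of the control. Cdkn1b (0.32 ± 0.0508, adjusted p = 0.053), Rbl2 (0.27 ± 0.0497, adjusted p = 0.0676) and Cdkn1a (-0.31 ± 0.0697, adjusted p = 0.103) did not pass, nor did Cdkn1c at -0.18 ± 0.0582 (adjusted p = 0.183) or Ccng1 at 0.00 ± 0.0427 (adjusted p = 0.967).

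This comparison rested on few arrays. The number passing was 0 without control replicate 1 or 2 or without R406 plus curdlan replicate 1 or 2, with 6 or 7 of the 8 at an unadjusted p under 0.05 (limma; 12.1% to 19.7% of all probe sets). In those fits 15 to 19 of the 29214 probe sets passed at all, against 652 with every array. The number of members passing was 1, Hbp1, without curdlan replicate 1 or 2. Hbp1 kept a change between 0.96 and 1.09 when a control or R406 plus curdlan array was left out. Leaving out a curdlan array could not move that change. With a variance prior that follows the signal level 6 of the 8 passed, Cdkn1b and Rbl2 higher and Cdkn1a lower in addition. Calls over all 29214 probe sets rose in that fit as well, from 652 to 2341. By order of group means, Ccng2, Hbp1, Cdkn1b and Rbl2 were lowest with curdlan and highest under R406, Cdkn1a was lowest under R406 and highest with curdlan, and for Cdkn2c the control and curdlan groups overlapped below R406.

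**Figure D3:**
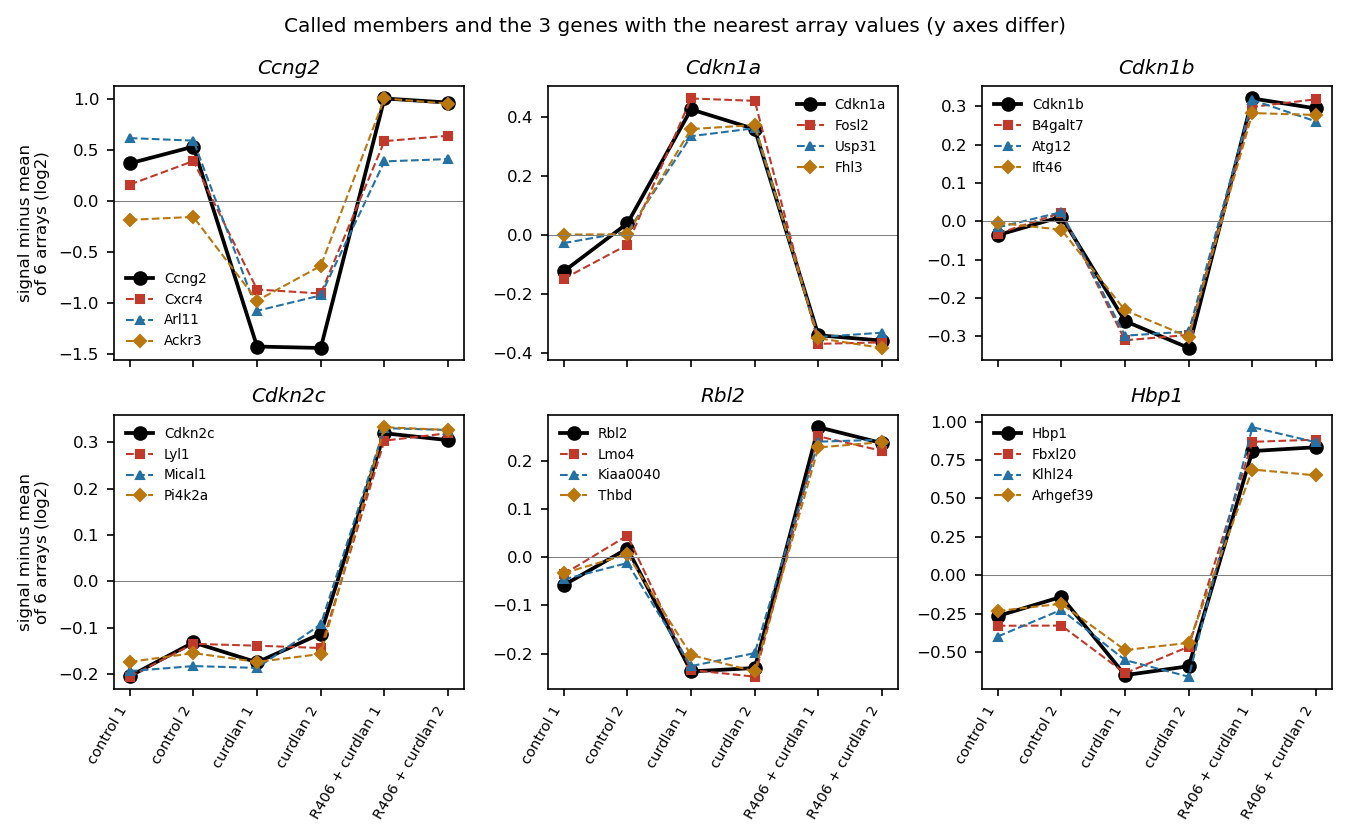
Signal minus the mean of the 6 arrays (log2, y axes differ) for the 6 genes that passed in at least 1 comparison (black circles) and, for each, the 3 of 14505 other genes with the nearest array values (coloured markers); lines only join the points of a gene. The genes nearest to Cdkn1a are highest in the curdlan arrays and those nearest to the other 5 are highest under R406, except Arl11, which is highest in control arrays.

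The genes with the most similar readings were found by the root mean square difference of the 6 array values after each gene's mean was removed. For Ccng2, whose own values had a root mean square of 1.04, the nearest were the chemokine receptor gene Cxcr4 at 0.397, Arl11 at 0.437 and the atypical chemokine receptor gene Ackr3 at 0.522. For Hbp1 (0.606) they were Fbxl20 at 0.101, Klhl24 at 0.103 and Arhgef39 at 0.1295. For Cdkn1a (0.309) they were the AP-1 subunit gene Fosl2 at 0.0541, Usp31 at 0.0565 and Fhl3 at 0.0608.

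For Cdkn1b the nearest were B4galt7, the autophagy gene Atg12 and Ift46, at 0.0284 to 0.0303. For Cdkn2c they were the transcription factor gene Lyl1, Mical1 and Pi4k2a, at 0.0215 to 0.0263. For Rbl2 they were Lmo4, Kiaa0040 and the thrombomodulin gene Thbd, at 0.0193 to 0.025. These distances are descriptions over 6 arrays, which the compared genes share.

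**Figure D4:**
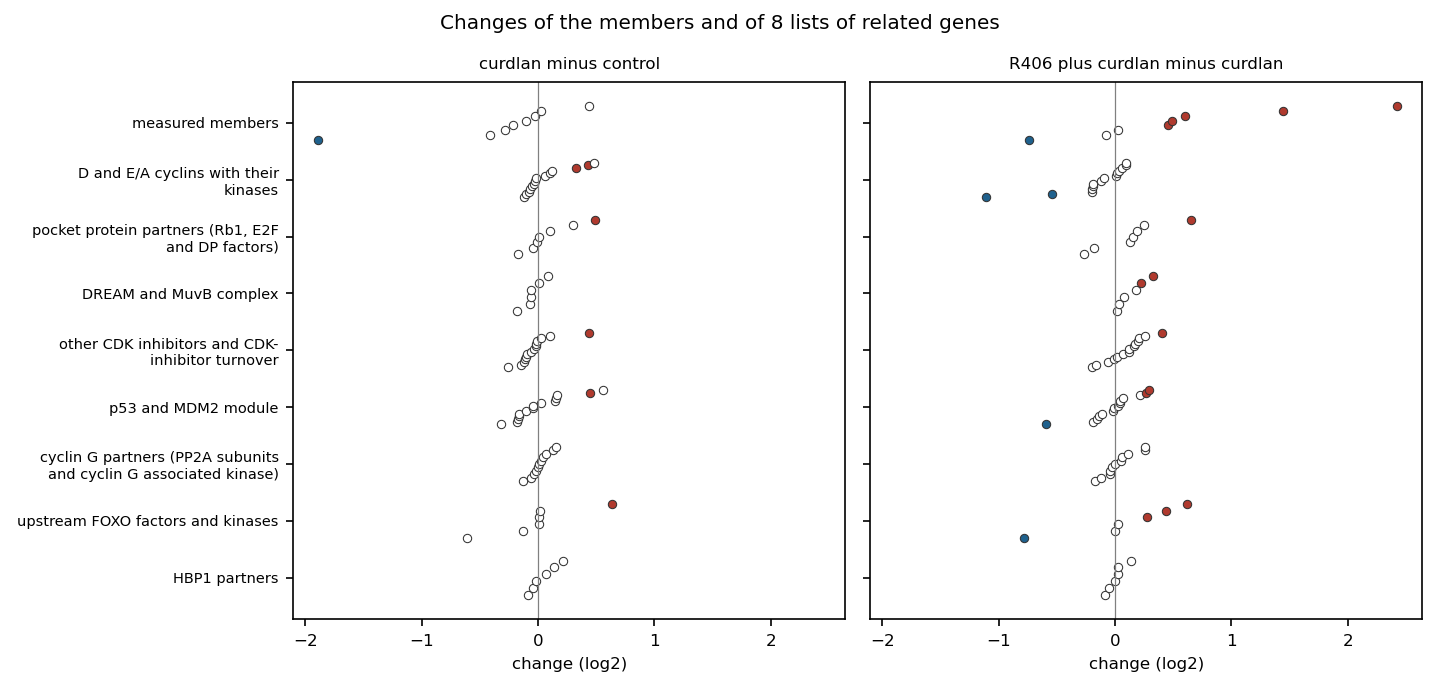
Change in log2 signal (x axis) of the 8 measured members and of the measured genes of 8 related lists (rows), for curdlan minus control (left) and R406 plus curdlan minus curdlan (right); filled points passed at an adjusted p under 0.05, red higher and blue lower. The points farthest from 0 in both panels belong to Ccng2, at -1.89 and 2.42.

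A list of 14 genes held the D, E and A cyclins and the kinases that these inhibitors act on. It also held Cdc25a, Cdk7, Ccnh and Mnat1, which are outside that group. With curdlan 2 rose, the E-type cyclin gene Ccne2 by 0.43 ± 0.048 (adjusted p = 0.0305) and Cdc25a, which encodes a phosphatase that activates the kinases, by 0.32 ± 0.0429 (adjusted p = 0.0435). Under R406 2 fell against curdlan alone, the D-type cyclin gene Ccnd1 by 1.11 ± 0.0789 (adjusted p = 0.00389) and Cdc25a by 0.54 ± 0.0429 (adjusted p = 0.00529), and 0 rose. Ccnd1 was also below control, at -0.64 ± 0.0789 (adjusted p = 0.0311). The list's median change was -0.02 with curdlan and -0.11 under R406.

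Of 7 measured pocket protein partners, E2f5, which encodes an E2F factor that pairs with p130, rose by 0.49 ± 0.0628 with curdlan (adjusted p = 0.0412), and Tfdp2, a dimer partner of E2F factors, rose by 0.65 ± 0.0493 under R406 against curdlan (adjusted p = 0.00452). None of the 7 passed with a fall in either comparison. At an unadjusted p under 0.05 (limma) were 3 of the 7 with curdlan and 7 of the 7 under R406. Of all probe sets 14.4% and 22% reached that. The list's median change was 0.01 with curdlan and 0.154 under R406. Against control, E2f7 and Tfdp2 were higher under R406, by 0.46 ± 0.0533 and 0.48 ± 0.0493 (adjusted p = 0.0274 and 0.0206). Rb1, the third pocket protein gene, had changes of 0.01 ± 0.0541 and 0.19 ± 0.0541 (adjusted p = 0.964 and 0.119). Of 6 measured genes of the DREAM and MuvB complex, 0 passed with curdlan (limma; 1 at an unadjusted p under 0.05), and Lin37 and Foxm1 rose under R406, by 0.22 ± 0.0432 and 0.33 ± 0.046 (adjusted p = 0.0487 and 0.0208). Foxm1 was also above control under R406, by 0.42 ± 0.046 (adjusted p = 0.025).

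Of 14 measured genes in the list of other kinase inhibitors and inhibitor turnover, Skp2 rose with curdlan by 0.44 ± 0.0609 (adjusted p = 0.0467). Skp2 encodes the ubiquitin ligase subunit that targets p27, the product of Cdkn1b. Under R406 the INK4 gene Cdkn2b rose by 0.40 ± 0.0461 (adjusted p = 0.0123), as Cdkn2c did, while Skp2 had a change of -0.20 ± 0.0609 (adjusted p = 0.143). The INK4 and ARF gene Cdkn2a was dim, with a mean of 6.13 in control arrays, and had changes of -0.04 ± 0.0691 and -0.17 ± 0.0691 (adjusted p = 0.873 and 0.249).

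In the p53 and MDM2 list, which holds genes that share p53 control with Ccng1 and Cdkn1a, 1 of 14 measured genes rose with curdlan, Tp53inp1 by 0.45 ± 0.0488 (adjusted p = 0.0294). Under R406 against curdlan, Tp53inp1 and the BH3-only gene Bbc3 rose by 0.29 ± 0.0488 and 0.26 ± 0.0521 (adjusted p = 0.0328 and 0.0498), and the nuclease gene Aen fell by 0.59 ± 0.0436 (adjusted p = 0.00435). Mdm2, which encodes the ubiquitin ligase of p53, did not pass in these comparisons (-0.18 ± 0.0509 and -0.16 ± 0.0509, adjusted p = 0.208 and 0.161), while against control 3 genes of the list passed under R406: Tp53inp1 was higher by 0.74 ± 0.0488 (adjusted p = 0.00898), Aen was lower, at -0.42 ± 0.0436 (adjusted p = 0.0207), and so was Mdm2, at -0.34 ± 0.0509 (adjusted p = 0.0492). The list's median changes, -0.04 and 0.01, were near those of all probe sets. Single genes still moved: 7 of the 14 with curdlan and 4 under R406 had an unadjusted p under 0.05 (limma). Of all probe sets 14.4% and 22% reached that.

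Of 6 measured FOXO factors and their kinases, Foxo1 rose by 0.64 ± 0.0543 with curdlan (adjusted p = 0.0163) and fell by 0.78 ± 0.0543 under R406 (adjusted p = 0.00374), in the same directions as the values of Cdkn1a. Foxo3 had -0.61 ± 0.0922 with curdlan (adjusted p = 0.0567) and rose by 0.62 ± 0.0922 under R406 (adjusted p = 0.0245), with Foxo4 at 0.27 ± 0.0515 and the kinase gene Sgk1 at 0.44 ± 0.0442 (adjusted p = 0.0445 and 0.00881). Against control, Sgk1 was higher under R406 by 0.31 ± 0.0442 (adjusted p = 0.0418). FOXO proteins are controlled mainly by phosphorylation, which transcript arrays do not measure. Of the cyclin G partners, subunits of the phosphatase PP2A and the kinase gene Gak, 0 of 11 passed with curdlan and 0 of 11 under R406 (limma; 1 and 4 at an unadjusted p under 0.05, which 14.4% and 22% of all probe sets reached). Of 6 measured HBP1 partners 0 passed in either comparison (2 and 0 at an unadjusted p under 0.05).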

How the data were processed

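Total RNA of the 6 samples was labelled with biotin and hybridised to rat Affymetrix arrays. The authors deposited log2 signals, 1 for each probe set on each array. Per the submitters' processing notes these came from Affymetrix Expression Console. Its version, its summarisation method and a genome build were not given in the sources used here. That the logarithm has base 2 was taken from the values, whose highest lay between 14.37 and 14.41 on every array. Array medians were nearly equal, and if the authors scaled the arrays to each other, a change shared by most transcripts would not be seen. For arrays, their number limits the precision.

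All 29214 probe sets were fitted in 1 limma model (R 4.3.3, limma 3.58.1, lmFit and eBayes) of the 3 groups, with 3 residual degrees of freedom and 2.155 prior degrees of freedom. Tests were 2-sided with Benjamini-Hochberg adjustment over all probe sets at 0.05, and errors are standard errors. Of the probe sets, 15310 had 1 symbol in the annotation, 323 had several and 13581 had none, and 0 columns belonged to other samples. The genes, the 8 related lists, the 4 marker lists and a list of reference genes were chosen with earlier results of these data known. Of 11 measured reference genes 0 passed in any comparison (limma; 0 at an unadjusted p under 0.05). Of 10 fibroblast and epithelial markers 0 passed in any comparison, with 1 or 2 at an unadjusted p under 0.05, a share of 14.4% to 22% over all probe sets. The text names every member, up to 4 passing genes of each related list per comparison and direction, and the 3 nearest genes of each member that passed. Promoter windows came from a RefSeq table, which held 9 of the 10 genes. The fit was tested on simulated data. Alternatives were a replicate block, each array left out, the 4 arrays compared, quantile and median scaling, a signal filter, a variance trend, the mean of a gene's probe sets and a threshold of 0.01.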

Additional observations from a re-analysis of the deposited data

How the results depend on the processing

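With curdlan against control, 1 of the 8 genes passed, and 1 (Ccng2) in every fit that left out 1 array; it was 5 among probe sets above the median signal and 5 with a variance trend. For R406 plus curdlan against curdlan, 6 passed and 2 to 6 did without 1 array; each other alternative gave 5 or 6. For R406 plus curdlan against control, 3 passed, and the number was 0 to 1 without 1 array, 1 with only the 4 arrays of both groups, 1 at an adjusted p under 0.01, 6 above the median signal and 6 with a variance trend. Over all 29214 probe sets the trend raised calls from 465 to 1557 with curdlan and from 652 to 2341 for R406 plus curdlan against control. The signal filter, which kept 14607 probe sets and 7 of the 8 genes, gave 1572 and 2278. A group left with 1 array is assumed in these fits to vary like the others. None of the 8 genes changed direction, where it had passed, under the alternatives run. Only leaving out an array of the compared groups, quantile scaling and centring on medians could move a change. The other alternatives keep each change as it was, so they could not show a change of direction. The genes of the other lists were not run under the alternatives. Quantile scaling gave 1, 6 and 3, and centring on medians 1, 6 and 4, adding Cdkn1b at an adjusted p of 0.0406.

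The labels number the arrays of each group 1 and 2, without saying that a number marks a shared culture or day. Same-numbered arrays deviated with correlations of -0.115, -0.00454 and 0.113 between groups. With the replicate block 1, 6 and 1 genes passed in the 3 comparisons, out of 102, 1129 and 62 probe sets. With the control numbers crossed, a fit added after the data were seen, 1, 6 and 1 passed. With 2 arrays per group, genes that missed the threshold are not shown to be equal between groups, and the low signal of Cdkn1c limits what its probe set can show.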
